A study of Mus musculus with 18 samples.

Results

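Macrophage and immune cell genes were followed in the gastrocnemius and quadriceps of DM1 mice. The set was a list of 39 mouse genes chosen for their known role in macrophages and other leukocytes, and the Ensembl identifiers of the deposited counts were matched to symbols. Of these, 36 genes had a line in the files, among 46725 genes in all, and all 36 passed the filter on low counts. Itgam, Cd74 and Spp1 were not analysed here. RNA sequencing of polyA RNA was available for 3 WT, 3 HSA-LR and 3 treated HSA-LR mice, with 1 gastrocnemius and 1 quadriceps library per mouse, 18 in all. All mice were of the FVB strain and 20 weeks old. HSA-LR mice carry a human skeletal actin transgene with an expanded CTG repeat. The transgene is driven by the actin promoter in skeletal muscle fibers. Treated HSA-LR mice received intravenous Pip6a-PMO, a morpholino antisense oligomer against the repeat joined to a cell-penetrating peptide. The labels give an injection volume of 160 µL for all 18 libraries, yet list the WT and HSA-LR mice as untreated. Whether those mice were injected is not clear from these labels. Each mouse is a replicate of its group. The comparisons asked whether the genes differed between HSA-LR and WT mice, whether they moved with treatment, and whether the muscles and the resident and infiltrating macrophage genes behaved alike.

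Macrophages are phagocytes that lie between the fibers of healthy muscle and clear debris. Some are long-lived residents, and others arise from blood monocytes that enter damaged muscle. Their survival depends on the receptor Csf1r, and the transcription factor PU.1, encoded by Spi1, controls much of the myeloid program. They make the complement chains C1qa, C1qb and C1qc, lysosomal enzymes, Fc receptors that signal through the adaptors Fcer1g and Tyrobp, and MHC class II molecules for antigen presentation.

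PU.1 binds sequences with the core GAGGAA. RefSeq promoters on GRCm38.p6, from 250 bases before to 50 bases after a transcript start, were at hand for 29 of the 39 genes, in 34 promoters, those of Itgam and Spp1 included. GAGGAA, searched on both strands, lay in 18 of the 34 (52.9%), against 28.3% of all 32851 promoters of that length. Short windows are shown for 6 genes, chosen because they were called in the quadriceps, with GAGGAA or its reverse complement in capitals, read along the strand of the gene:
Cd68 (chr11:69666379-69666406): ttcttaccaatGAGGAAagggcttccca
Mrc1 (chr2:14229368-14229395): aaagggacagcTTCCTCtgtcctccttt
Trem2 (chr17:48346350-48346377): gcctcctttccTTCCTCcctccctcacg
Ctss (chr3:95526611-95526638): acacagggttgGAGGAAaactttgtcct
C1qb (chr4:136886214-136886241): cagcaggatggGAGGAAcagaggggtga
Laptm5 (chr4:130913267-130913294): cagcctgtggcTTCCTCttttttgttct

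MHC class II promoters are known instead for a CCAAT box, bound by NF-Y. CCAAT, searched on both strands, lay in 13 of the 34 promoters (38.2%), against 37.4% of all promoters. The windows of H2-Aa and H2-Eb1 are shown as examples, with CCAAT or its reverse complement in capitals:
H2-Aa (chr17:34287856-34287882): agaattttctgATTGGttctggcgagt
H2-Eb1 (chr17:34305797-34305823): ctttgatgctgATTGGctcccagcact
Neither motif is contained in the other, and in Cd68 the letters CCAAT directly precede GAGGAA. The PU.1 core also lay in promoters of the uncalled Ptprc, Aif1, Fcgr1, Ccl8 and Ms4a7. It lay in no promoter of Cx3cr1, Gpnmb, Lyz2, Ccr2, Ccl6 and Fcgr2b, all called in HSA-LR against WT quadriceps. CCAAT lay in those of the called Mrc1, Trem2 and Cd53. A match describes the letters in the window and is not evidence of binding.

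Total counts ran from 98916844 to 143135976 per library. Levels are given as CPM, that is counts scaled by library size and TMM factor, except for exon bins, which were scaled by library size alone. A gene was called at an adjusted P under 0.1 over all genes tested, from the quasi-likelihood test of edgeR after Benjamini-Hochberg correction. Coverage along transcripts, the median log2 ratio of the 5′ to the 3′ part over 5429 genes, lay between −1.74 and −1.55 in 17 libraries and at −2.12 in the gastrocnemius of treated mouse 3. WT mouse 2, labelled female, had 64.9 CPM of the Y-linked Ddx3y in the gastrocnemius, whereas WT mouse 3, labelled male, had 0.432 CPM. No group was formed by sex. In whole muscle, more cells of a type and more RNA per cell cannot be told apart.

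Per kilobase of exon, the level of the members in WT quadriceps was highest for Lyz2, the macrophage lysozyme, at 14.1 CPM per kilobase, and lowest for Cx3cr1, the fractalkine receptor, at 0.0135. The C1q chains followed Lyz2, at 5.81, 3.75 and 2.94 CPM per kilobase for C1qa, C1qb and C1qc, and Tyrobp lay at 3.81. Trem2 lay at 0.0532 and Ccr2, the receptor for monocyte recruitment, at 0.0556 CPM per kilobase. Ptprc, a gene of all leukocytes, was about as low, at 0.0754. Other genes of infiltrating or lesion macrophages were higher, at 0.504 for Gpnmb, 0.636 for Cd14, 2.57 for Ccl6 and 2.61 for Lgals3. Cx3cr1 rested on 2 to 34 counts per library and Fcgr1 on 4 to 46. Summed over the 36 genes, WT mice had 103 to 147 CPM in the quadriceps and 124 to 182 CPM in the gastrocnemius. Lyz2 and Fcgr2b have close relatives in the genome (Lyz1, and Fcgr3 for Fcgr2b), so the share of counts given to each is uncertain. Csf1r, Fcgr2b, Cx3cr1 and Folr2 overlap a gene on the other strand, and the strand setting of the counting is not given in the sources used here. FVB mice carry another MHC haplotype than the reference strain, which makes the level of the class II genes against other genes uncertain, but not the comparison between groups.

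**Figure D1:**
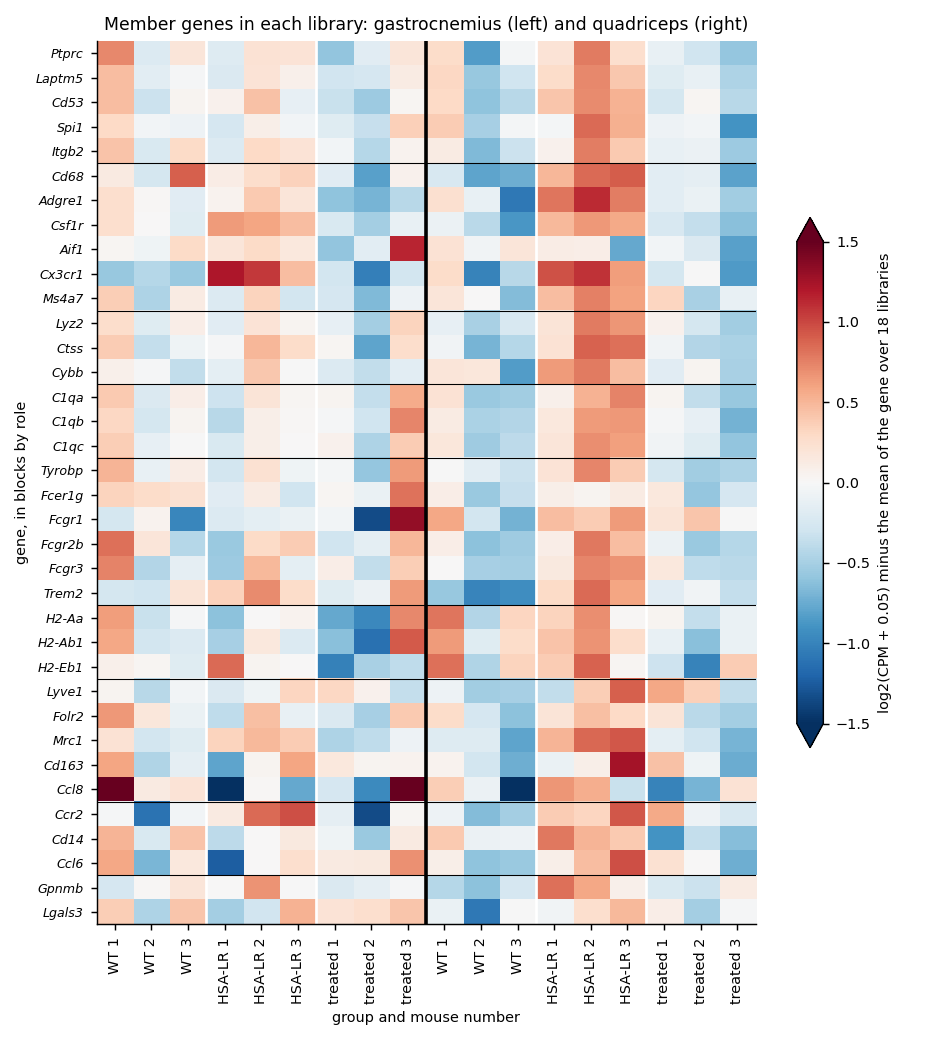
Heat map of the 36 genes (vertical axis, in blocks by role) in the 18 libraries (horizontal axis, group and mouse number, gastrocnemius left and quadriceps right). Color gives log2(CPM + 0.05) minus the mean of the gene over the 18 libraries, and the quadriceps columns of the 3 HSA-LR mice are red for most genes.

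In the quadriceps, macrophage genes were higher in HSA-LR than in WT mice. Of the 36 genes, 17 rose and 0 fell, whereas 11% of the 15574 genes tested rose and 9.31% fell, 20.3% in all. The log2 FC was above 0 for 35 of the 36, against 50.6% of all genes, with a median of 0.75 against 0.01. All 3 HSA-LR mice lay above all 3 WT mice for 18 of the 36, against 16.9% of all genes. The summed level was 147, 103 and 106 CPM in WT mice 1, 2 and 3 and 173, 226 and 222 CPM in HSA-LR mice 1, 2 and 3, so the groups did not overlap. Single mice weighed on the count of calls, which was 9 without WT mouse 2, 8 without WT mouse 3, 8 without HSA-LR mouse 2 and 9 without HSA-LR mouse 3. Cd68, Trem2, Csf1r, Mrc1, Gpnmb, Ctss and Lyz2 were called with each mouse left out and under every other setting tried.

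Of 6 genes that define macrophages, Cd68, Csf1r, Adgre1 and Cx3cr1 rose. Cd68, a glycoprotein of macrophage lysosomes, had 3.91, 2.65 and 2.76 CPM in WT mice and 6.55, 8.36 and 8.72 CPM in HSA-LR mice, a log2 FC of 1.35 (SE 0.23, adjusted P = 0.00608, edgeR). Its lowest HSA-LR value was well above the highest WT value. Csf1r had 15.9, 12.8 and 9.26 CPM in WT mice and 23.9, 26.6 and 25.1 CPM in HSA-LR mice. The log2 FC was 1.0 (SE 0.18, adjusted P = 0.00872, edgeR), again with no overlap. Adgre1, which encodes the macrophage antigen F4/80, rose from 1.69 ± 0.72 to 3.73 ± 0.52 CPM (SD, n = 3), a log2 FC of 1.15 (adjusted P = 0.0368, edgeR). Cx3cr1 was at 0.113, 0.0175 and 0.0513 CPM in WT mice and 0.211, 0.236 and 0.158 CPM in HSA-LR mice. Its log2 FC of 1.72 had an SE of 0.58 (adjusted P = 0.086, edgeR), and the call was lost in 7 of the 9 fits that left out a mouse. Of the other identity genes, Ms4a7 was not called, and Aif1, which encodes the marker Iba1, had a log2 FC of −0.27 (SE 0.32, adjusted P = 0.643, edgeR). Aif1 was the 1 gene of the 36 with a log2 FC below 0.

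Effector genes of phagocytes rose as well. Lyz2 had 20.6, 16.0 and 19.1 CPM in WT mice and 25.7, 38.6 and 35.6 CPM in HSA-LR mice, a log2 FC of 0.85 (SE 0.19, adjusted P = 0.0195, edgeR). Ctss, a lysosomal protease that trims the class II invariant chain, had 4.03, 2.56 and 3.10 CPM in WT mice and 4.87, 7.74 and 7.43 CPM in HSA-LR mice, a log2 FC of 1.06 (SE 0.23, adjusted P = 0.0179, edgeR). HSA-LR mouse 1 was the lowest of its group for both genes. Cybb, the catalytic chain of the phagocyte NADPH oxidase, was not called, although its HSA-LR range of 2.25 to 2.81 CPM lay above the WT range of 0.881 to 1.84 CPM. The C1q chains had log2 FC values of 0.75 for C1qb and for C1qc (adjusted P = 0.0689 and 0.0587, edgeR), and C1qa was not called. Summed over the 3 chains, WT mouse 1 at 21.0 CPM overlapped HSA-LR mouse 1 at 20.4 CPM, and the other WT mice lay at 12.9 and 13.5 CPM.

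Among the adaptors and receptors, Trem2, a lipid receptor of phagocytes that signals through Tyrobp, showed the largest log2 FC of the called genes after Cx3cr1. It had 0.323, 0.228 and 0.239 CPM in WT mice and 0.623, 0.944 and 0.782 CPM in HSA-LR mice, a 2.98-fold difference (log2 FC 1.58, SE 0.25, adjusted P = 0.00439, edgeR). The groups lay far apart on its scale. Tyrobp had 2.82, 2.54 and 2.27 CPM in WT mice and 3.30, 4.76 and 3.74 CPM in HSA-LR mice, a log2 FC of 0.64 (SE 0.17, adjusted P = 0.0378, edgeR). The inhibitory Fc receptor Fcgr2b and the activating Fcgr3 rose by 0.81 and 0.89 on the log2 scale (adjusted P = 0.0656 and 0.0462, edgeR). Fcer1g and Fcgr1 were not called. Of the 5 genes of leukocyte identity and control, the tetraspanin gene Cd53 rose (log2 FC 0.78, adjusted P = 0.0824, edgeR), whereas Ptprc (CD45), Laptm5, Itgb2 (CD18) and Spi1 were not called. The median log2 FC of these 5 genes was 0.63.

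MHC class II genes, singled out after their values were seen, were not called. H2-Aa had 5.11, 2.14 and 3.64 CPM in WT mice and 3.69, 4.74 and 2.95 CPM in HSA-LR mice. H2-Ab1 had 6.01, 3.36 and 4.64 CPM in WT mice and 5.17, 6.15 and 4.62 CPM in HSA-LR mice. The groups overlapped for both genes, which encode the chains of the class II molecule I-A. Their log2 FC was 0.07 (SE 0.30) and 0.19 (SE 0.23), and that of H2-Eb1 was 0.18 (SE 0.49), with adjusted P from 0.654 to 0.917 (edgeR).

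**Figure D2:**
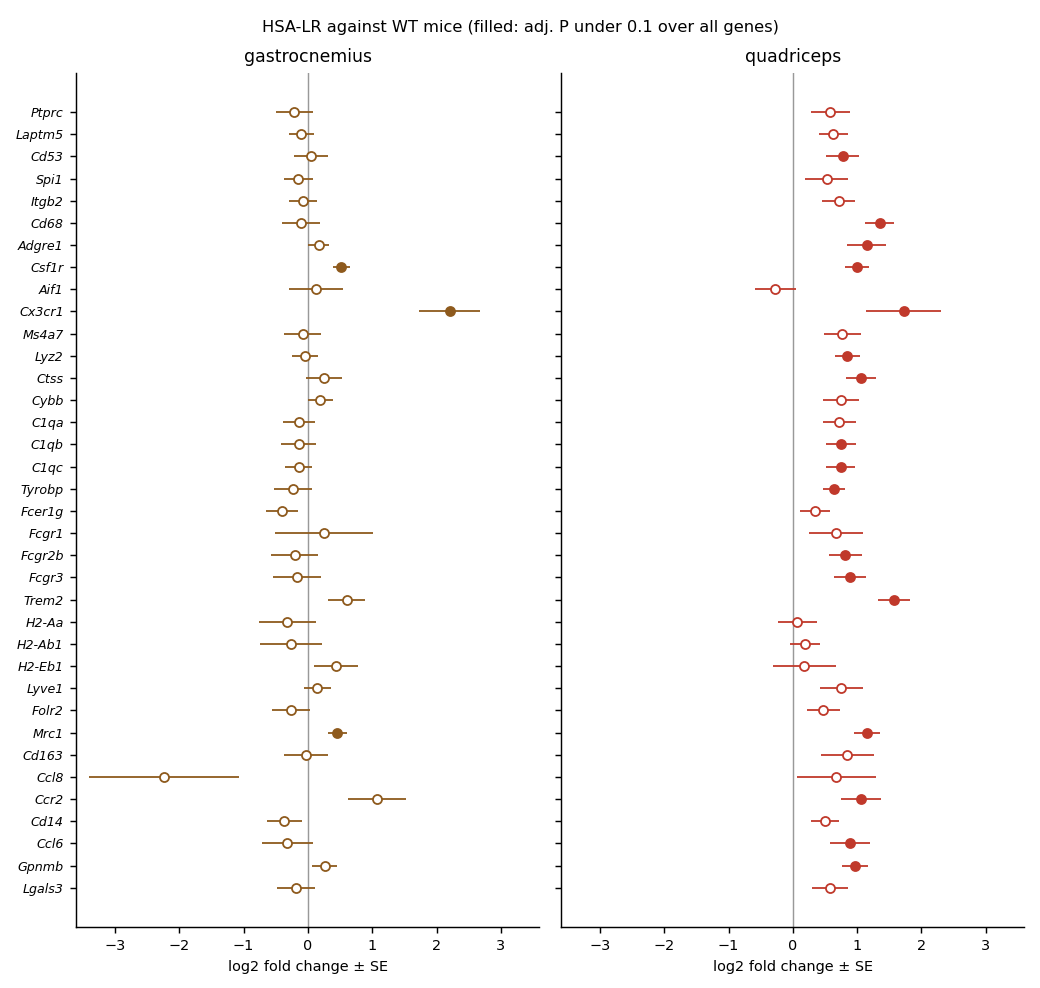
Log2 FC of HSA-LR against WT mice (horizontal axis) with its SE for the 36 genes (vertical axis), for the gastrocnemius (left) and the quadriceps (right), n = 3 mice per group. Filled points were called at an adjusted P under 0.1: 3 genes in the gastrocnemius and 17 in the quadriceps, all to the right of 0.

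In the gastrocnemius, few of these genes differed between HSA-LR and WT mice. Cx3cr1, Csf1r and Mrc1 rose and 0 fell, that is 3 of 36 genes, whereas 8.6% of the 15625 genes tested rose and 6.94% fell, 15.5% in all. The median log2 FC was −0.09, against −0.01 over all genes, with 14 genes above 0 and 22 below. All HSA-LR mice lay above all WT mice for 5 of the 36, against 19.6% of all genes. Csf1r had 20.2, 17.1 and 14.9 CPM in WT mice and 26.4, 25.7 and 23.4 CPM in HSA-LR mice, a log2 FC of 0.52 (SE 0.14, adjusted P = 0.042, edgeR). Mrc1, the mannose receptor of resident macrophages, had 12.6, 9.01 and 9.59 CPM in WT mice and 13.7, 15.3 and 14.2 CPM in HSA-LR mice, a log2 FC of 0.46 (SE 0.15, adjusted P = 0.0925, edgeR). All HSA-LR mice lay above all WT mice for both genes. Cx3cr1 had 5, 7 and 6 counts in WT mice and 34, 30 and 16 counts in HSA-LR mice, or 0.0410, 0.0506 and 0.0418 against 0.262, 0.231 and 0.135 CPM. Its log2 FC was 2.20 (SE 0.47, adjusted P = 0.0185, edgeR), and it was called with each mouse left out. The number of calls was 1 without WT mouse 2, WT mouse 3, HSA-LR mouse 1 or HSA-LR mouse 2. It was also 1 when the largest exon bin of each gene took the place of the sum.

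By P, the next 3 genes of the gastrocnemius were Ccr2, Trem2 and Ccl8, and none of these was called. Ccr2 had 0.4996, 0.210 and 0.495 CPM in WT mice and 0.563, 0.954 and 1.04 CPM in HSA-LR mice (log2 FC 1.08, SE 0.46, adjusted P = 0.177, edgeR). Trem2 had a log2 FC of 0.60 (SE 0.29, adjusted P = 0.239, edgeR). Ccl8, a chemokine of resident macrophages, was at 1.52 CPM in WT mouse 1 and at 0.296 and 0.314 CPM in the other WT mice, and at 0.0463 to 0.269 CPM in HSA-LR mice. Its log2 FC was −2.24 (SE 1.17, adjusted P = 0.275, edgeR), with WT mouse 1 far above the other WT mice.

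Counts along Csf1r and Mrc1 were compared because the largest bin gave a smaller difference than the sum. The exon bins of each gene were parted into 3 runs of like number, from the 5′ to the 3′ end. Their counts were scaled by library size alone, without the TMM factor. That factor was 1.104, 1.131 and 1.012 in HSA-LR and 1.007, 0.9672 and 1.002 in WT quadriceps. It was also higher in HSA-LR than in WT gastrocnemius. The ratios below thus lie higher than on the TMM scale and cannot be set against the log2 FC of the whole gene. In the gastrocnemius, the log2 ratio of the HSA-LR to the WT mean was 0.86 in the 5′ run and 0.48 in the 3′ run of Csf1r, and 0.84 and 0.37 in those of Mrc1. In the quadriceps, it was 1.21 and 1.03 for Csf1r and 1.46 and 1.21 for Mrc1. The largest bin of Mrc1, near its 3′ end, held 2.49 ± 0.47 CPM in WT and 2.82 ± 0.40 CPM in HSA-LR gastrocnemius (SD, n = 3), and 1.78 ± 0.35 and 4.13 ± 0.03 CPM in the quadriceps. The quadriceps difference thus exceeded the spread between mice in this bin, whereas the gastrocnemius difference did not.

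**Figure D3:**
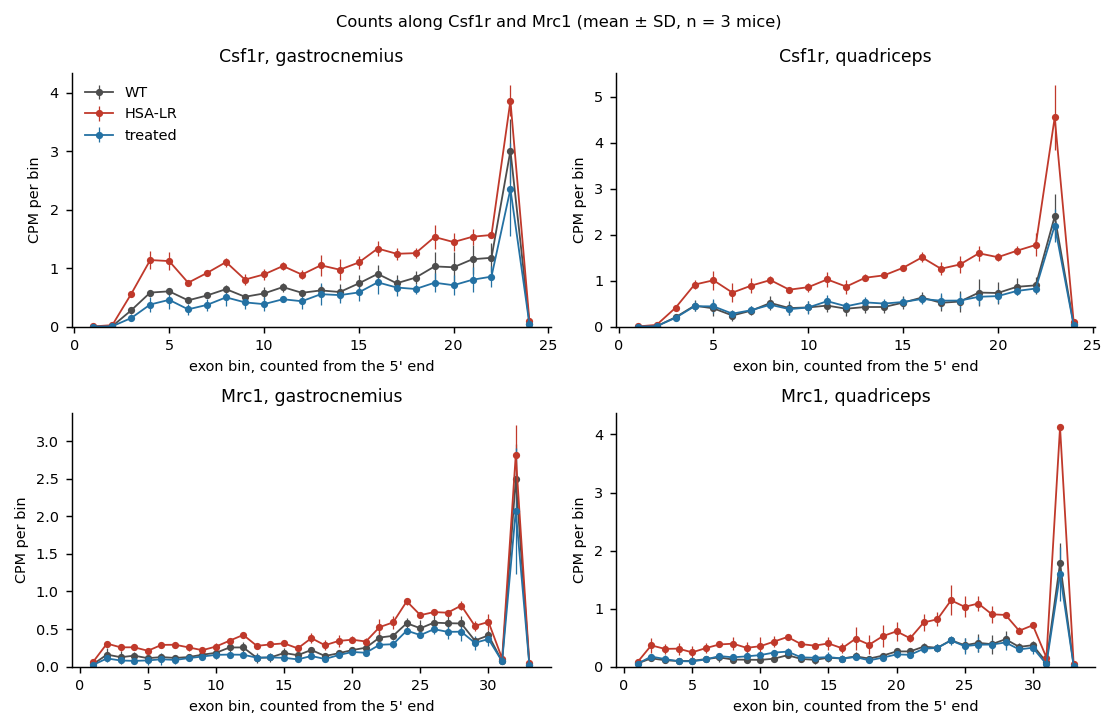
CPM per exon bin (vertical axis) along Csf1r (top) and Mrc1 (bottom), with bins counted from the 5′ end (horizontal axis), in the gastrocnemius (left) and quadriceps (right). CPM is scaled here by library size alone, without the TMM factor. Points are means and bars SD of 3 mice, and in the quadriceps the HSA-LR line runs above the WT and treated lines along both genes.

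Next, the muscles were compared directly. Averaged over the 3 groups, 0 of the 36 genes differed between gastrocnemius and quadriceps (edgeR and DESeq2). With edgeR, 1 had an unadjusted P under 0.05, against 23.5% of all genes. Of the 16167 genes tested, 13.3% were called, with 6.64% of all higher in the gastrocnemius and 6.63% lower. Without WT mouse 3, 1 gene was called. This fit, and the tests within a group below, held no term for the mouse, so the muscles of 1 animal were not paired. With the mouse as a block, 0 of the 36 were called averaged over the groups, with a smallest adjusted P of 0.1025 (edgeR). There, 2 of the 36 had an unadjusted P under 0.05, against 29.8% of all genes. By group, the median log2 difference of gastrocnemius minus quadriceps over the 36 genes was 0.32 in WT, −0.48 in HSA-LR and 0.16 in treated mice, against −0.01, 0.01 and 0.01 over all genes. The genes were higher in the gastrocnemius for 29 of 36 in WT mice and for 3 of 36 in HSA-LR mice, against 48.6% and 51.7% of all genes. Within a group, 0 of the 36 were called in WT, HSA-LR or treated mice (edgeR), where 0.297%, 2.21% and 1.47% of all genes were called. An unadjusted P under 0.05 was found for 3, 7 and 0 of the 36, against 8.89%, 13.4% and 15.7% of all genes. Within each mouse, the summed level in the gastrocnemius over that in the quadriceps had a log2 of 0.31, 0.28 and 0.47 in WT mice 1 to 3. It was −0.37, −0.39 and −0.45 in the HSA-LR group and −0.12, −0.12 and 0.79 in the treated group. All WT mice thus lay above 0 and all HSA-LR mice below, and treated mouse 3 stood apart from the other treated mice.

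The difference of the HSA-LR effect between the muscles was then tested by an interaction term over all 18 libraries. Of the 36 genes, 0 were called by edgeR and 0 by DESeq2, and edgeR called 0.0% of the 16167 genes tested. An unadjusted P under 0.05 was found for 15 of the 36, against 4.39% of all genes, and for 19 of the 36 with DESeq2, against 4.8%. With the mouse as a block, which matches the muscles of 1 animal, 28 of the 36 had an unadjusted P under 0.05, against 8.56% of all genes, and 0 were called. Cd68 had the smallest adjusted P without the block (0.676, edgeR), with an effect lower by 1.44 on the log2 scale in the gastrocnemius (log2 difference −1.44, SE 0.40). The effect was smaller in the gastrocnemius for 32 of 36 genes, with a median difference of −0.76, but no gene passed the adjustment, so a difference between the muscles was not shown for any single gene. For treated against HSA-LR mice the same interaction called 0 of 36 genes and 0.0% of all (edgeR), and 8 of the 36 had an unadjusted P under 0.05, against 7.86% of all genes.

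Resident macrophages of muscle carry Lyve1, Folr2, Mrc1, Cd163 and Ccl8. Infiltrating monocytes and macrophages of lesions are marked by Ccr2, Cd14, Ccl6, Gpnmb, Lgals3 and Trem2. In the quadriceps of HSA-LR mice, Mrc1 was the 1 called gene of the 5 resident genes, whereas Ccr2, Ccl6, Gpnmb and Trem2 were called among the 6 others, and whether the shares differ was not tested. Mrc1 had 9.51, 9.49 and 6.30 CPM in WT mice and 15.5, 19.9 and 20.8 CPM in HSA-LR mice, a log2 FC of 1.16 (SE 0.20, adjusted P = 0.00703, edgeR). Gpnmb, a transmembrane glycoprotein of lipid-laden phagocytes, had 3.27, 2.86 and 3.71 CPM in WT mice and 7.87, 6.63 and 4.67 CPM in HSA-LR mice, a log2 FC of 0.97 (SE 0.21, adjusted P = 0.0173, edgeR). Neither gene overlapped between these groups. Ccr2 had 0.479, 0.307 and 0.342 CPM in WT mice and 0.677, 0.650 and 1.02 CPM in HSA-LR mice (log2 FC 1.06, SE 0.32, adjusted P = 0.0563, edgeR).

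The chemokine gene Ccl6 had 6.14, 3.78 and 3.90 CPM in WT quadriceps and 6.11, 7.98 and 11.3 CPM in HSA-LR quadriceps, a log2 FC of 0.88 (SE 0.31, adjusted P = 0.0953, edgeR). WT mouse 1 and HSA-LR mouse 1 overlapped for this gene. Lyve1, a hyaluronan receptor also made by lymphatic endothelium, had 5.21, 3.79 and 3.88 CPM in WT mice and 4.23, 7.08 and 10.3 CPM in HSA-LR mice (log2 FC 0.75, SE 0.33, adjusted P = 0.179, edgeR). Cd163, the hemoglobin scavenger receptor, had 4.22, 3.37 and 2.45 CPM in WT mice and 3.82, 4.35 and 9.76 CPM in HSA-LR mice (log2 FC 0.84, SE 0.41, adjusted P = 0.218, edgeR). HSA-LR mouse 3 was the highest of its group for Ccl6, Lyve1 and Cd163.

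Summed over the 5 resident genes, the quadriceps of WT mice had 24.4, 20.4 and 15.4 CPM and that of HSA-LR mice 28.8, 37.5 and 46.1 CPM. The 6 infiltrating and lesion-associated genes summed to 17.3, 11.01 and 15.2 CPM in WT mice and 23.0, 24.9 and 27.6 CPM in HSA-LR mice. Both sums were higher in each HSA-LR mouse than in any WT mouse, and the mean log2 sums differed by 0.90 and 0.82. The infiltrating sum rested mostly on Lgals3, Ccl6 and Gpnmb, with means of 4.85, 4.61 and 3.28 CPM in WT quadriceps. Ccr2 and Trem2, at 0.376 and 0.263 CPM, added little, so this sum and the ratio say little about these 2 genes. Mrc1, at 8.43 CPM, was the largest part of the resident sum. The log2 ratio of the resident to the infiltrating sum was 0.47 ± 0.44 in WT, 0.55 ± 0.21 in HSA-LR and 0.42 ± 0.30 in treated quadriceps (SD, n = 3), with differences under the spread between mice. In the gastrocnemius it was 0.40 ± 0.30, 0.64 ± 0.22 and 0.19 ± 0.08. There the 3 treated mice, at 0.28, 0.17 and 0.13, lay below the 3 HSA-LR mice, at 0.88, 0.58 and 0.46, and the WT mice, at 0.53, 0.61 and 0.06, overlapped both groups. The gastrocnemius difference of HSA-LR against WT mice turned from 0.18 to −0.33 when the mean log2 CPM of the 5 genes took the place of the sum.

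**Figure D4:**
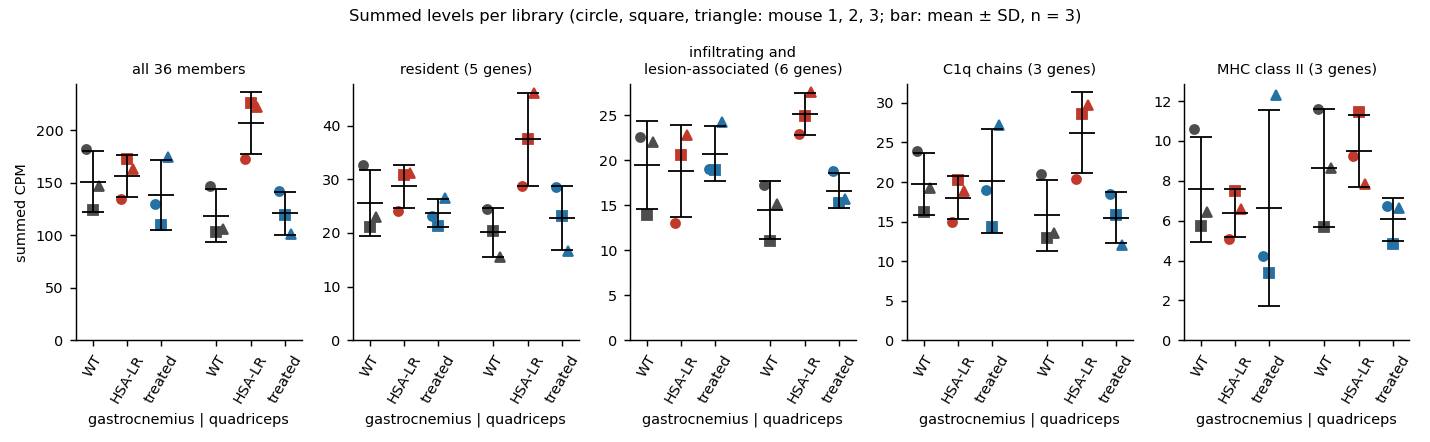
Summed CPM (vertical axis) of all 36 genes, 5 resident genes, 6 infiltrating and lesion-associated genes, 3 C1q chains and 3 MHC class II genes, by group and muscle (horizontal axis). Circles, squares and triangles are mice 1, 2 and 3 and bars are mean ± SD (n = 3), and in the quadriceps the HSA-LR mice sit at 173 to 226 CPM for all genes, above WT and treated mice.

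After Pip6a-PMO, the quadriceps had lower levels of these genes than the quadriceps of HSA-LR mice. Of the 36 genes, 18 fell and 0 rose, whereas 7.22% of all genes tested fell and 6.54% rose. An unadjusted P under 0.05 was found for 24 of the 36, against 26.3% of all genes. All 36 log2 FC values were below 0, with a median of −0.78 against −0.01 over all genes. All 3 treated mice lay below all 3 HSA-LR mice for 23 of the 36, against 15.6% of all genes. The summed level was 142, 119 and 101 CPM in treated mice 1, 2 and 3, below each HSA-LR mouse. These comparisons share the HSA-LR mice with those against WT mice, so that a high value in these 3 mice moves both. Single mice again decided much of the count, with 9 and 5 calls without HSA-LR mouse 1 or 2 and 7, 5 and 8 calls without treated mouse 1, 2 or 3. It was 2 with the coverage along transcripts as a covariate, chosen after seeing the data, when 2.78% of all genes were called in place of 13.8%. Coverage in the quadriceps was between −1.69 and −1.60 in HSA-LR mice and between −1.61 and −1.55 in treated mice, and its part in the result was not tested beyond this fit.

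Mrc1 and Tyrobp were called lower in every setting tried, and Cd68, Csf1r and Cd14 with each mouse left out. Mrc1 had 9.82, 8.84 and 6.69 CPM in treated mice, and its log2 FC against HSA-LR mice was −1.16 (SE 0.20, adjusted P = 0.015, edgeR). Tyrobp had 2.37, 1.97 and 2.05 CPM in treated mice, a log2 FC of −0.89 (SE 0.17, adjusted P = 0.0198, edgeR). Every treated mouse was below every HSA-LR mouse for both genes. Cd68 had 4.14, 4.20 and 2.62 CPM in treated mice (log2 FC −1.12, SE 0.23, adjusted P = 0.0244, edgeR), and Csf1r had 14.4, 13.2 and 10.95 CPM (log2 FC −0.98, SE 0.18, adjusted P = 0.0186, edgeR). Cd14, a receptor for bacterial lipopolysaccharide, had 1.37, 0.963 and 0.975 CPM in WT, 1.81, 1.49 and 1.36 CPM in HSA-LR and 0.530, 0.793 and 0.646 CPM in treated mice. Its log2 FC of −1.25 (SE 0.23, adjusted P = 0.0169, edgeR) was the largest fall after that of Cx3cr1, and treated mice lay below WT mice as well.

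The other called genes fell by 0.67 (Gpnmb) to 1.81 (Cx3cr1) on the log2 scale. They were Adgre1, C1qb, C1qc, Lyz2, Ctss, Cybb, Laptm5, Cd53, Fcgr2b, Cx3cr1, H2-Ab1, Trem2 and Gpnmb, with adjusted P from 0.0374 for Ctss to 0.0977 for Cd53 (edgeR). Of these 13 calls, each was lost in at least 2 of the 9 fits that left out a mouse. Cd14, Cybb, H2-Ab1 and Laptm5 were lower in treated mice without having been called higher in HSA-LR mice. Ccl6, Ccr2 and Fcgr3 had risen in HSA-LR mice and were not called lower in treated mice. Ccr2 had 0.781, 0.481 and 0.422 CPM in treated mice, overlapping the HSA-LR mice.

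**Figure D5:**
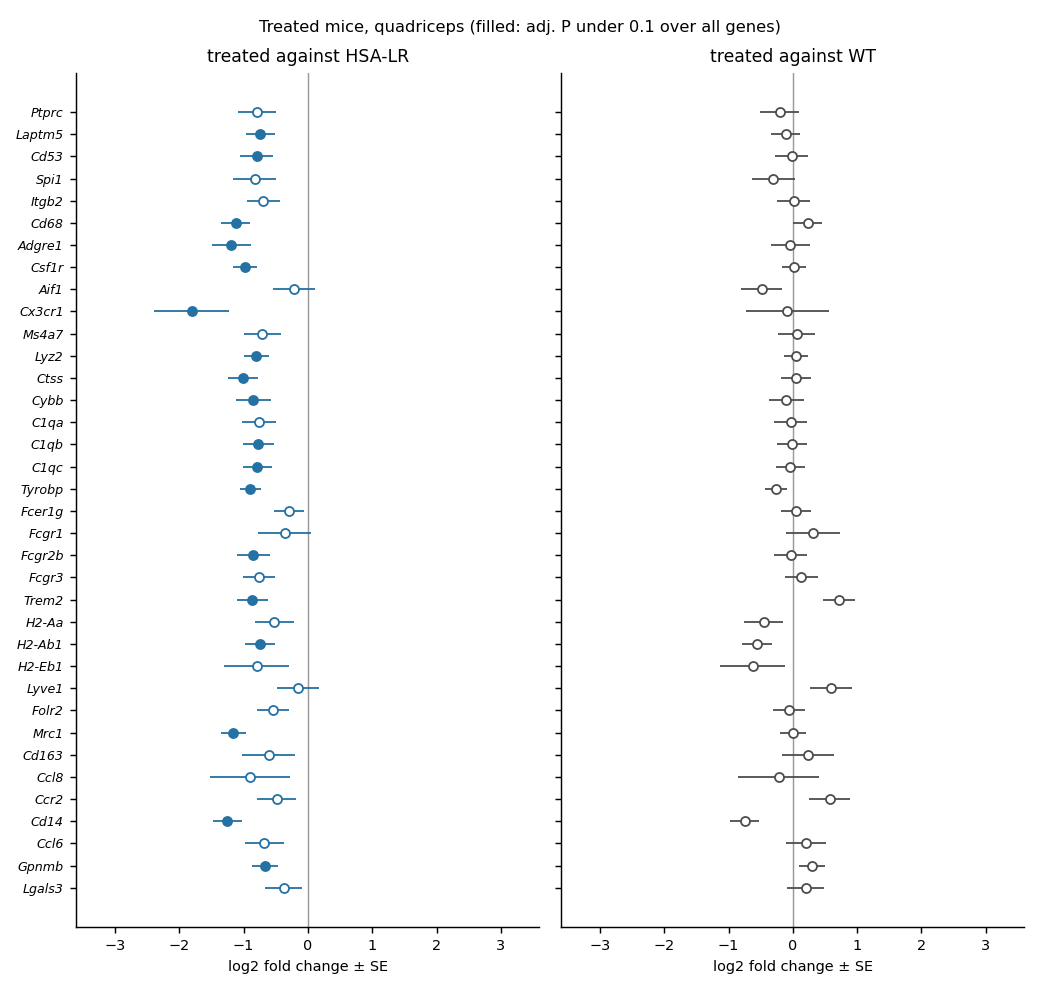
Log2 FC (horizontal axis) with its SE in the quadriceps for the 36 genes (vertical axis), treated against HSA-LR mice (left) and treated against WT mice (right), n = 3 mice per group. Filled points were called at an adjusted P under 0.1: 18 genes on the left, all below 0, and 0 on the right.

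In the gastrocnemius, Csf1r, Adgre1, Mrc1, Cx3cr1 and H2-Eb1 were lower in treated than in HSA-LR mice, that is 5 of 36 genes, with 0 higher, whereas 5.53% of all genes tested fell and 4.49% rose, 10% in all. The median log2 FC over the 36 was −0.07, with 16 above 0 and 20 below. Csf1r had 14.5, 11.9 and 15.7 CPM in treated mice, a log2 FC of −0.84 (SE 0.14, adjusted P = 0.0131, edgeR). It was called with each mouse left out but not from its largest exon bin (log2 FC −0.63). Adgre1 fell from 2.03, 2.59 and 2.23 CPM in HSA-LR to 1.28, 1.19 and 1.46 CPM in treated mice, a log2 FC of −0.79 (SE 0.17, adjusted P = 0.0327, edgeR). Mrc1 had 7.88, 8.35 and 10.3 CPM in treated mice (log2 FC −0.70, SE 0.15, adjusted P = 0.0344, edgeR), and Cx3cr1 had 8, 2 and 6 counts (log2 FC −2.17, SE 0.48, adjusted P = 0.035, edgeR). Treated mice lay below HSA-LR mice without overlap for each of these 4 genes. H2-Eb1, with 68, 36 and 32 counts in HSA-LR mice and 14, 22 and 19 in treated mice, was called (log2 FC −1.16, SE 0.36, adjusted P = 0.0973, edgeR), but lost its call in each of the 9 fits without a mouse. The count was 2 without HSA-LR mouse 1, 1 without HSA-LR mouse 2 and 3 without treated mouse 2, and 1 with the largest bin of each gene. Adgre1, Csf1r, Cx3cr1 and Mrc1 were called lower in both muscles.

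Treated mouse 3, whose gastrocnemius stood apart in coverage, was the highest of the treated gastrocnemius libraries for several other members. Ccl8 was at 2.21 CPM in this library against 0.214 and 0.113 CPM in the other treated mice, H2-Ab1 at 7.29 against 2.46 and 1.74 CPM, and Aif1 at 1.27 against 0.345 and 0.484 CPM. These genes were singled out after their values were seen. The 3 C1q chains summed to 27.2 CPM in this library against 19.0 and 14.3 CPM. The same library had 254 CPM of 6 adipocyte genes against 51.3 and 61.0 CPM in the other treated mice, and 3134 CPM of 5 erythroid genes against 1095 and 907 CPM. The erythroid genes summed to 508, 673 and 679 CPM in the gastrocnemius of HSA-LR mice and to 3863, 781 and 949 CPM in that of WT mice. All HSA-LR mice thus lay below all WT and all treated mice, and the part of these in the member levels was not tested.

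Against WT mice, 0 of the 36 genes were called in treated mice in either muscle by edgeR, whereas 1.04% of all genes were called in the gastrocnemius (0.595% higher, 0.448% lower) and 1.41% in the quadriceps (1.1% higher, 0.302% lower). An unadjusted P under 0.05 was found for 2 genes in the gastrocnemius and 3 in the quadriceps, against 10.5% and 12.5% of all genes (edgeR). DESeq2 called 1 of the 36 in each muscle, Adgre1 and Cd14, among 529 of 15625 and 748 of 15574 genes called in all. Adgre1 in the gastrocnemius had a log2 FC of −0.63 (SE 0.17, adjusted P = 0.2, edgeR), with treated mice at 1.19 to 1.46 CPM and WT mice at 1.74 to 2.34 CPM. Cd14 in the quadriceps had a log2 FC of −0.75 (SE 0.23, adjusted P = 0.225, edgeR). Trem2 in the quadriceps was at 0.440, 0.481 and 0.381 CPM in treated mice, above all WT mice and below all HSA-LR mice, with a log2 FC of 0.72 (SE 0.25, adjusted P = 0.29, edgeR). In the gastrocnemius, treated mice lay above all WT mice for 0 of the 36 and below for 2, against 7.1% and 7.18% of all genes. In the quadriceps these counts were 1 and 1, against 9.42% and 8.93% of all genes. The median log2 FC over the 36 genes was −0.11 in the gastrocnemius and −0.02 in the quadriceps. A P that misses the threshold with 3 mice per group does not show that the levels were equal.

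Related genes outside the 39 were read from lists for the same pathways. Their counts stand against those over all genes, of which 11% rose and 9.31% fell in HSA-LR quadriceps. With treatment, 7.22% of all genes fell there and 6.54% rose. In the quadriceps of HSA-LR mice, 11 of 30 further myeloid genes rose and 0 fell, and in treated against HSA-LR mice 13 fell and 1 rose. Plek, which encodes the phagocyte protein pleckstrin, had 1.14, 1.22 and 1.05 CPM in WT, 1.91, 2.18 and 2.52 CPM in HSA-LR and 1.26, 1.19 and 1.15 CPM in treated mice. HSA-LR mice lay above both other groups for this gene. Of 20 genes of ITAM signaling and phagocytosis, 7 rose and 1 fell in HSA-LR quadriceps, and 4 fell and 1 rose with treatment. The gene that fell and then rose was Mertk, a receptor for the uptake of dying cells, with 3.95, 3.96 and 3.16 CPM in WT, 2.15, 2.02 and 2.03 CPM in HSA-LR and 3.54, 2.75 and 3.47 CPM in treated mice. The log2 FC of Mertk was −0.83 for HSA-LR over WT and 0.65 for treated over HSA-LR (adjusted P = 0.00829 and 0.0383, edgeR). Of the 5 further NADPH oxidase genes, 3 rose in HSA-LR quadriceps and 2 fell with treatment.

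Among 13 further resident macrophage genes, 4 rose and 1 fell in HSA-LR quadriceps, and 1 rose and 1 fell with treatment. Their summed level went the other way from that of the resident members, although 4 of these genes rose and 1 fell in the quadriceps. A sum is weighted toward its most abundant transcripts, and the share of each gene in it is not reported here. In the quadriceps it was 380.4, 392.3 and 367.5 CPM in WT mice against 332.7, 343.8 and 309.4 CPM in HSA-LR mice, and in the gastrocnemius 467.2, 429 and 390 CPM against 295.9, 346.4 and 276.5 CPM, each time with all HSA-LR mice below all WT mice. Pf4, a chemokine of platelets and resident macrophages, had a log2 FC of 0.96 and then −1.07 (adjusted P = 0.0111 and 0.0146, edgeR), and Vsig4, a complement receptor, had 1.44 in HSA-LR mice (adjusted P = 0.0277, edgeR). Of 14 monocyte and inflammatory genes that passed the filter, 2 rose in HSA-LR quadriceps and 2 fell with treatment, 14.3% of the list in each case, and the first share is near that over all genes. Of 14 complement genes beyond C1q, 4 rose and 3 fell in the same comparisons, with C3ar1, the receptor for C3a, at log2 FC 1.02 and −0.85 (adjusted P = 0.0147 and 0.0469, edgeR). Of 11 genes that control or load MHC class II, 0 were called in HSA-LR quadriceps (edgeR). Among 13 CSF1 family and chemokine genes, 2 rose and 1 fell in HSA-LR quadriceps. Cx3cl1, the ligand of Cx3cr1, had 1.08, 1.04 and 1.31 CPM in WT, 3.70, 2.54 and 2.82 CPM in HSA-LR and 2.25, 1.56 and 1.41 CPM in treated mice. Its log2 FC was 1.41 and then −0.80 (adjusted P = 0.00483 and 0.063, edgeR), and its HSA-LR values lay above all others. In the gastrocnemius of HSA-LR mice, 0 or 1 gene rose and 0 to 2 fell in each of these lists, where 8.6% of all genes rose and 6.94% fell.

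Markers of T cells and neutrophils were low. In the quadriceps, 12 T cell genes summed to 0.438 to 1.33 CPM in WT, 0.449 to 1.14 CPM in HSA-LR and 0.532 to 0.709 CPM in treated mice, and of the 5 that passed the filter 0 were called (edgeR). Neutrophil genes, 11 in all, summed to 0.631 to 1.98, 0.622 to 0.865 and 0.464 to 0.743 CPM in the same groups, and Ly6g and Camp were at 0 in every quadriceps library. In the gastrocnemius, T cell genes summed to 0.564 to 2.45 CPM in WT and 0.3 to 0.423 CPM in HSA-LR mice, and neutrophil genes to 1.78 to 4.41 and 0.677 to 1.51 CPM, so HSA-LR mice lay below WT mice for both. There Il7r, a cytokine receptor of lymphocytes, and Csf3r, the G-CSF receptor of neutrophils, fell by 2.32 and 1.42 on the log2 scale (adjusted P = 0.07 and 0.0783, edgeR). None of the 4 neutrophil, 6 mast cell and 1 natural killer cell genes that passed the filter was called in HSA-LR quadriceps (edgeR). Other cells of muscle moved with the comparison. Of 5 dendritic cell genes, 1 rose and 1 fell in HSA-LR quadriceps, where 11% of all genes rose and 9.31% fell. There, 4 of 6 endothelial genes and 4 of 5 genes of peripheral nerve fell, 2 of 3 fibroblast genes rose, and of 7 genes of satellite cells and regenerating fibers 4 rose and 1 fell. The fibroblast gene Lum had a log2 FC of 0.92 and then −0.90 with treatment (adjusted P = 0.000689 and 0.00205, edgeR). The 8 genes of mature muscle fibers summed to 132400 to 159200 CPM in WT, 108100 to 124800 CPM in HSA-LR and 140200 to 171300 CPM in treated quadriceps, with HSA-LR mice below both other groups. Erythroid genes summed to 194.5 to 297.8, 79 to 329 and 356 to 703 CPM in the same groups, with treated mice above both others. Adipocyte genes summed to 26.6 to 690 CPM in HSA-LR and 165 to 606 CPM in WT quadriceps, and 0 of 6 were called. The part of these other cells in the member levels was not tested.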

How the data were processed

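Libraries were made from Trizol RNA with a stranded TruSeq polyA kit. The authors deposited raw counts per exon bin and library, with no normalization and no pooling. The submitters' processing notes name CASAVA, HISAT, featureCounts 1.5.0 and GRCm38, with no further detail on their use. Lines that name no gene, 2.82% to 4.14% of the counts, were dropped. Counts were summed per gene, so a pair spanning several bins counts in each. Symbols were found for 46520 genes in GENCODE M21. Filtering used filterByExpr (minimum count 10, minimum total 15), followed by TMM and the quasi-likelihood test of edgeR 4.0.16 (limma 3.58.1, R 4.3.3) with Benjamini-Hochberg adjustment over all genes, with 9 libraries per muscle or all 18 in 1 fit. SE is the log2 FC over the root of F. Alternatives were upper-quartile scaling, DESeq2 1.42.0, no count filter, the largest bin, a replicate block, fits of 2 groups, each mouse left out and, added after seeing the data, a coverage covariate. Other scripts used Python 3.11.15, pandas 2.3.3, numpy 2.4.6 and matplotlib 3.10.9. Only the edgeR fit was tested on simulated data.

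The members and lists were chosen with earlier results of these data known. Full statistics were given for members called and for at most 6 per muscle with the smallest P in HSA-LR against WT mice, and at most 2 genes by P from each other list. Both muscles with 1 replicate number came from 1 mouse, since they carry the same animal number. The correlation of their residuals around the group mean was 0.215 at the median of 9 mice (lowest 0.0645, highest 0.511) and −0.0903 between different mice. The labels give no batch. Results for some single genes of the other lists are not reported here.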

Additional observations from a re-analysis of the deposited data

How the results depend on the processing

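In the gastrocnemius, the 3 calls in HSA-LR against WT mice became 1 with the largest bin, 5 with the coverage covariate, and 1 to 3 with a mouse left out, and the 5 calls in treated against HSA-LR mice became 1 with the largest bin and 1 to 4 with a mouse left out. In the quadriceps, the 17 calls in HSA-LR against WT mice ranged from 8 to 22 with a mouse left out, and the 18 calls in treated against HSA-LR mice became 10 with the replicate block, 2 with the coverage covariate and 5 to 18 with a mouse left out. Gastrocnemius against quadriceps gave 0 to 1 calls. Between treated and WT mice, DESeq2 called 1 gene per muscle. With the mean log2 CPM in place of the sum, the resident genes of the gastrocnemius differed by −0.33 in place of 0.18 in HSA-LR against WT mice and by 0.17 in place of −0.27 in treated against HSA-LR mice. The cause of these shifts was not tested. Over the 43 calls of single genes, the direction was kept in all 687 refits, and 188 were no longer past the threshold. Replicate numbers across groups did not pair the mice (r from −0.231 to 0.255, over 0.1 for 5 of 18 pairs). The replicate block within a muscle is thus given here only. Genes of low counts, such as Cx3cr1, Fcgr1 and H2-Eb1, are limited in part by counting error.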

Other observations

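Ighm, which encodes the heavy chain of IgM, fell in HSA-LR mice and rose with treatment in both muscles. In the quadriceps it had 609, 547 and 298 CPM in WT mice, 241, 252 and 202 CPM in HSA-LR mice and 693, 500 and 536 CPM in treated mice, so that all HSA-LR mice lay below all others. The log2 FC was −1.06 and then 1.31 in the quadriceps (adjusted P = 0.0222 and 0.0194, edgeR), and −1.45 and then 1.71 in the gastrocnemius (adjusted P = 0.0266 and 0.0249, edgeR). Only 3 of 8 B cell genes passed the filter in the quadriceps. All 8 summed to 609.3, 547.6 and 298.2 CPM in WT mice 1, 2 and 3, so Ighm made up nearly the whole sum. Ptprc, a gene of all leukocytes, had 1.84, 0.823 and 1.48 CPM in the same libraries. Whether the Ighm level reflects B cells was not tested. Runx1, a transcription factor gene of blood cells that muscle fibers can also express, had a log2 FC of 1.91 in the quadriceps and 1.53 in the gastrocnemius of HSA-LR mice (adjusted P = 0.000678 and 0.00103, edgeR).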
